A study of Mus musculus with 6 samples.

Results

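The transcripts of 10 genes of the oxygen-sensing pathway were examined, from the hypoxia inducible factors to genes that these factors switch on. They were Hif1a, Epas1, Arnt, Egln1, Egln2, Egln3, Vhl, Adm, Bnip3 and Ankrd37, a list of names chosen with earlier results of these data known. All probe sets to which the platform annotation gives one of these symbols alone were taken, which gave 22 probe sets for the 10 genes, of 45037 probe sets and 18193 named genes in all. The cells were MIN6, an established line from a mouse insulinoma that stands in for pancreatic beta cells. The control group had 3 arrays of MIN6 cells that received a scrambled negative control siRNA. The other group had 3 arrays of MIN6 cells that received an siRNA against Hlxb9, whose gene symbol is Mnx1, a homeobox transcription factor of beta cells. Both groups were transfected by nucleofection together with RNAiMax, grown in low glucose medium and harvested 72 hours later, and neither was labelled as a hypoxia treatment. Only RNA from transfections with more than 75% knockdown by western blot went on arrays, the labels also call the samples sorted subpopulations without naming a gate, and the titles number the arrays of each group 1 to 3.

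The pathway works through protein stability. In well-oxygenated cells the prolyl hydroxylases encoded by Egln1, Egln2 and Egln3 modify the alpha subunits Hif1a and Epas1, the Vhl protein then recruits a ubiquitin ligase to them, and they are degraded. When oxygen falls the alpha subunits persist, pair with the constitutive beta subunit Arnt and bind a short DNA core, the hypoxia response element, near genes of glycolysis, mitophagy and vascular signalling. In beta cells, loss of Vhl stabilises Hif1a and is known to shift metabolism towards glycolysis and to impair glucose-stimulated insulin secretion. Expression arrays read transcript levels, so they carry no direct information on the stability of the alpha subunit proteins.

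The stretches just upstream of 4 genes are shown as background, and no expression result was tested against them. Adm, Bnip3 and Ankrd37 are responders whose signals shared a pattern across arrays, and Egln3 is the hydroxylase gene with the smallest p of its family. Each is the 250 bases before the annotated start (RefSeq, GRCm38.p6), 5′ to 3′ on the strand of the gene. They lie at chr7:110627407-110627656 (plus strand) for Adm, chr7:138909507-138909756 (minus) for Bnip3, chr8:45999851-46000100 (minus) for Ankrd37 and chr12:54203875-54204124 (minus) for Egln3. Capitals mark matches to ACGTG or GCGTG, the core of the hypoxia response element, on either strand, so that CACGT and CACGC are matches on the opposite strand.
Adm: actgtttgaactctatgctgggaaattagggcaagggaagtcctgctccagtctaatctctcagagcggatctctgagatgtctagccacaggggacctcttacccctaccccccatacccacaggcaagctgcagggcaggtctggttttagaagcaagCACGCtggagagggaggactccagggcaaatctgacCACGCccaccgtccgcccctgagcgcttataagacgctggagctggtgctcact
Bnip3: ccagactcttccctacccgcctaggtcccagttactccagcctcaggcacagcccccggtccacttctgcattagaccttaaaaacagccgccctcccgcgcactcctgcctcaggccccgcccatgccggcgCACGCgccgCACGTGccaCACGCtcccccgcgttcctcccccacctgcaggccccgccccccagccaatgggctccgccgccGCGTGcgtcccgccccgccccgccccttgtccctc
Ankrd37: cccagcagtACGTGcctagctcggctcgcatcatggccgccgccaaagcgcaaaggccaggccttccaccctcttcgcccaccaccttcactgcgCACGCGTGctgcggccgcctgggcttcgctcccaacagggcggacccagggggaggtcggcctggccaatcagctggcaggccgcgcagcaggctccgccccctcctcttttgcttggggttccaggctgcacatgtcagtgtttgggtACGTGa
Egln3: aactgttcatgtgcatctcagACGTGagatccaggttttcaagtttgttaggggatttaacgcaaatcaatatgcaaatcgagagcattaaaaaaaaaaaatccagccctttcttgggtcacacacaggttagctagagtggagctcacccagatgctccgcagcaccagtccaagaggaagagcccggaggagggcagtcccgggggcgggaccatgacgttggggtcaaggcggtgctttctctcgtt
The Bnip3 stretch held 5 matches, of which a pair at -108 to -103, counted from the annotated start, is one palindrome read on both strands. Ankrd37 held 4, of which 2 overlap between -155 and -148. Adm held 2, at -90 to -86 and -54 to -50, and Egln3 held 1, at -229 to -225. Stretches were available for 9 of the 10 genes, Epas1 being the exception, and 9 of their 10 windows held at least 1 match, the Vhl window being the one without. Of all 32851 windows of this length 38.6% held at least 1 match and 6.6% at least 3. The core contains CG, and base composition differed: G and C made up 72.4% of the Bnip3 window, 67.6% for Ankrd37, 56.8% for Adm and 50.8% for Egln3, against a median of 52.4% over all windows. A match describes letters and does not show that a factor binds there.

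The arrays were close to one another (Pearson r of 0.988 or higher over all probe sets). Control replicate 3 stood somewhat apart. There the Gapdh control probes near the 3′ end of the transcript read 2.13 log2 above those near its 5′ end. This gap, which grows as RNA is degraded, was 0.65 to 0.78 on the remaining arrays. Mnx1 itself, the targeted transcript, read 7.82, 7.50 and 7.77 log2 in control replicates 1, 2 and 3 and 7.53, 7.41 and 7.28 after Hlxb9 siRNA. The difference was -0.29 ± 0.13 log2 (SE), with an adjusted p of 0.659 by limma. A two-sided exact permutation test gave p = 0.2, and 0.1 is the smallest it could give. Beta cell markers were bright (6 of 8 listed genes measured, from 9.18 to 14.47 log2 over all arrays). Hormone genes of other islet cells were bright as well, with means over all arrays of 12.9 log2 for Gcg, 13.1 for Sst and 9.5 for Ppy.

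None of the 22 probe sets differed between Hlxb9 siRNA and control siRNA at an adjusted p of 0.05 (limma, adjusted p from 0.666 to 0.988). No probe set of the whole array passed either, 0 of 45037 (0%). At an unadjusted p of 0.05, 0 of the 22 passed, beside 7.62% of all probe sets (3.86% higher and 3.76% lower). For 0 of the 22 did the Hlxb9 siRNA arrays all lie on one side of the controls, beside 15.6% of all probe sets (8.27% higher and 7.29% lower). Differences ran from -0.56 log2 for Adm to 0.37 log2 for Egln3, with 11 probe sets higher and 11 lower, where 51.0% of all probe sets were higher. Read by the brightest probe set of each gene, 7 genes were higher and 3 lower. Their median difference was 0.12 log2, where that of all genes was 0.0023. Without Hlxb9 siRNA replicate 3 the split was 5 and 5. The replicate numbers may mark paired transfections, and with the number as a block 3 of the 22 had an unadjusted p under 0.05 (Adm, Ankrd37 and Egln3), beside 9.31% of all probe sets, and again 0 passed after adjustment (smallest limma adjusted p = 0.482). All 3 same-number differences had the same sign for 7 of the 22, beside 34.0% of all probe sets.

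**Figure D1:**
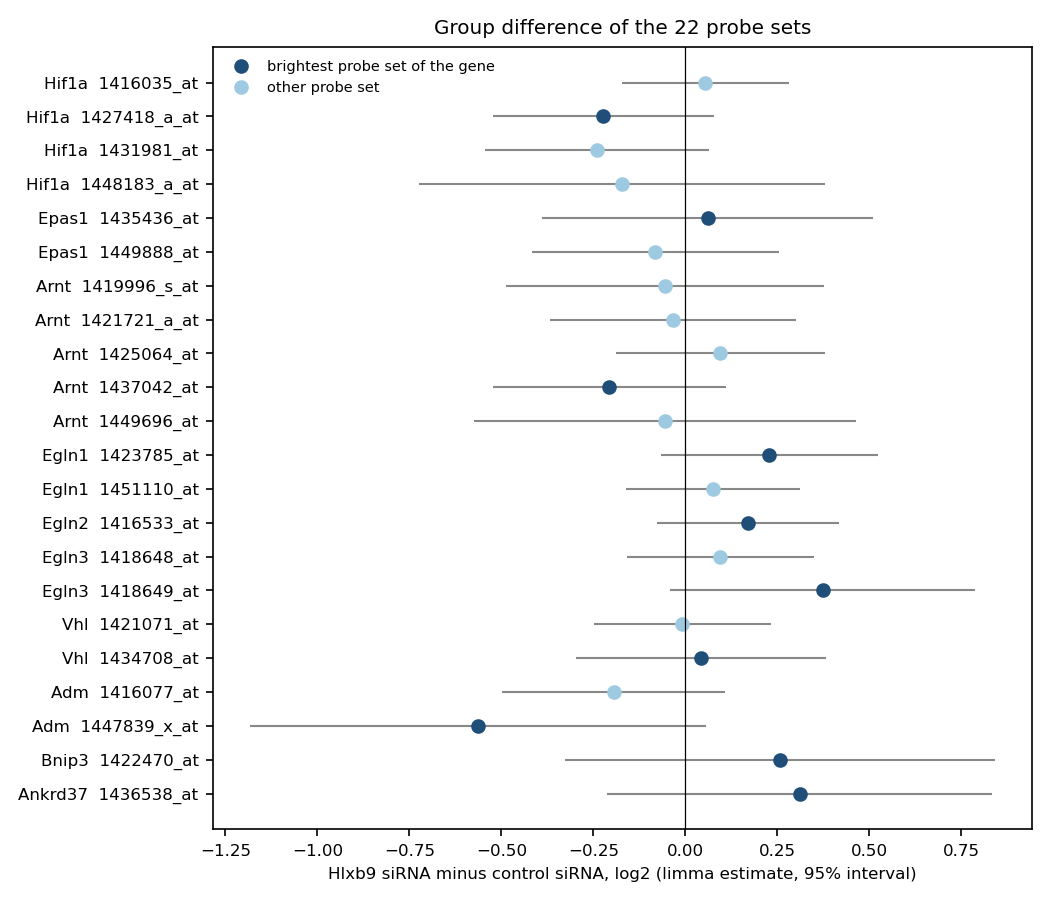
Difference between Hlxb9 siRNA and control siRNA in log2 signal (x axis) for the 22 probe sets (y axis), points giving limma's estimate from 3 arrays a group and bars its 95% interval. Dark points are the brightest probe set of a gene. Every interval includes 0, and the Adm interval is the widest, from -1.18 to 0.05.

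Among the factor subunits, Hif1a, the broadly expressed alpha subunit, was read by 4 probe sets. The brightest (1427418_a_at) read 11.16, 11.02 and 11.06 log2 in control replicates 1, 2 and 3, and 10.66, 10.84 and 11.07 after Hlxb9 siRNA. Replicates 1 and 2 were lower than every control and replicate 3 lay between control values. The difference was -0.22 ± 0.13 log2 (SE, limma adjusted p = 0.690). The other Hif1a probe sets differed by 0.05, -0.24 and -0.17, the first of these (1416035_at) being a bright one that read 9.16 ± 0.05 and 9.21 ± 0.07 (SD, n = 3). The direction for Hif1a therefore depends on the probe set, and the one at -0.24 is dim, 2.76 after Hlxb9 siRNA where the median probe set of the array reads 5.16.

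Epas1 encodes the other main alpha subunit, which is prominent in endothelium. Its brighter probe set read 8.34, 8.34 and 8.42 log2 in controls and 8.04, 8.40 and 8.86 after Hlxb9 siRNA. The controls were close to one another (SD 0.05), whereas the Hlxb9 siRNA arrays were spread around them, replicate 1 below and replicate 3 above (SD 0.41). The mean difference was 0.06 ± 0.19 (SE), and the second, dim probe set differed by -0.08. The endothelial markers Pecam1, Cdh5, Kdr and Tek were all between 2.87 and 4.40 log2 on every array, below the median probe set.

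Arnt, the shared beta subunit, had 5 probe sets with differences from -0.21 to 0.09 log2. The brightest read 10.13, 10.03 and 9.82 in controls and 9.57, 9.89 and 9.90 after Hlxb9 siRNA, a difference of -0.21 ± 0.14 (SE, limma adjusted p = 0.717). The groups overlapped, since control replicate 3 lay below both Hlxb9 siRNA replicates 2 and 3. Hlxb9 siRNA replicate 1 had the lowest reading of the 6 arrays on this probe set and on the brightest ones of Hif1a and Epas1.

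All 5 probe sets of the 3 prolyl hydroxylase genes were higher after Hlxb9 siRNA, by 0.08 to 0.37 log2, beside 51.0% of all probe sets, and none passed. After each array was centred on its median the 5 differences ran from 0.02 to 0.32 log2. Egln1, the main oxygen-dependent hydroxylase of the alpha subunits, read 10.72, 10.83 and 10.43 in controls and 10.94, 10.90 and 10.83 after Hlxb9 siRNA on its brighter probe set. Control replicate 3 was the lowest, and control replicate 2 just exceeded the lowest Hlxb9 siRNA array. The difference was 0.23 ± 0.13 (SE), or 1.17-fold, with an adjusted p of 0.685 by limma, and 0.11 without control replicate 3. The second Egln1 probe set differed by 0.08.

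Egln2, a hydroxylase whose transcript is not raised by hypoxia in most cells, read 10.31, 10.53 and 10.32 in controls and 10.62, 10.52 and 10.52 after Hlxb9 siRNA. Control replicate 2 alone reached the Hlxb9 siRNA values. The difference was 0.17 ± 0.11 (SE, limma adjusted p = 0.708).

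Egln3 is a hydroxylase and at the same time a responder, since its transcription is strongly raised by the factors it helps to degrade. Its brighter probe set (1418649_at) read 4.75, 4.99 and 4.68 in controls and 5.43, 5.31 and 4.80 after Hlxb9 siRNA, so replicates 1 and 2 were above every control and replicate 3 was not. The difference was 0.37 ± 0.18 log2 (SE), 1.30-fold (limma adjusted p = 0.666, and 0.519 with the replicate block). Within equal numbers it was 0.68, 0.32 and 0.12. Both Egln3 probe sets lay below the median of the array, and the other one differed by 0.10.

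Vhl, the substrate receptor of the ubiquitin ligase, was among the transcripts nearest to 0. Its bright probe set read 10.62, 10.60 and 10.31 in controls and 10.31, 10.66 and 10.69 after Hlxb9 siRNA, a difference of 0.04 ± 0.15 (SE) with a 95% interval from -0.30 to 0.38, and its dim one differed by -0.0080. In both groups 1 array was low, replicate 3 among controls and replicate 1 after Hlxb9 siRNA. The small difference changed sign, to -0.01, when each array was centred on its median.

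The 3 responders split. Adm, which encodes the vasodilator peptide adrenomedullin and is a classical target of the factors, was lower after Hlxb9 siRNA on both probe sets. The brighter one (1447839_x_at) read 8.26, 8.64 and 7.86 in controls and 7.74, 8.12 and 7.20 after Hlxb9 siRNA. The groups overlapped, but each Hlxb9 siRNA array lay below the control of its own number, by 0.51, 0.52 and 0.66 log2 (-0.51, -0.52 and -0.66 as Hlxb9 siRNA minus control). The difference was -0.56 ± 0.27 log2 (SE), 1.48-fold lower (limma adjusted p = 0.666). It was -0.32 without Hlxb9 siRNA replicate 3 and -0.37 without control replicate 2. With the replicate block its standard error shrank to 0.11 and its unadjusted p was 0.0018, but its limma adjusted p over all probe sets was 0.482. The suffix _x_at marks probes that can bind related sequences, and the median difference of the 2441 such probe sets of the array was -0.07, that of the others 0.0085. The plain Adm probe set, near the array median, read 5.35, 5.70 and 5.40 in controls and 5.38, 5.15 and 5.34 after Hlxb9 siRNA, a difference of -0.20 ± 0.13 (SE). Only replicate 2 differed clearly there, by -0.55 against 0.02 and -0.06 for the other two numbers.

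Bnip3, a mitochondrial outer membrane protein that promotes mitophagy, had 1 probe set. It read 10.45, 11.08 and 10.35 in controls and 10.99, 11.22 and 10.44 after Hlxb9 siRNA, a difference of 0.26 ± 0.25 log2 (SE, limma adjusted p = 0.802). Leaving out single arrays gave 0.09 (without Hlxb9 siRNA replicate 2) to 0.48 (without control replicate 2). The spread within each group (SD 0.40 in both) exceeded the difference between them. Ankrd37, an ankyrin repeat protein whose gene is a direct target of the factors, also had 1 probe set. Ankrd37 read 6.79, 7.06 and 6.44 in controls and 7.23, 7.36 and 6.64 after Hlxb9 siRNA, a difference of 0.31 ± 0.23 (SE), 1.24-fold (limma adjusted p = 0.740, and 0.514 with the replicate block). Leaving out single arrays gave 0.15 (without control replicate 3) to 0.53 (without Hlxb9 siRNA replicate 3). Bnip3 and Ankrd37 were both higher within all 3 numbers, by 0.54, 0.14 and 0.09 for Bnip3 and by 0.44, 0.29 and 0.20 for Ankrd37.

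**Figure D2:**
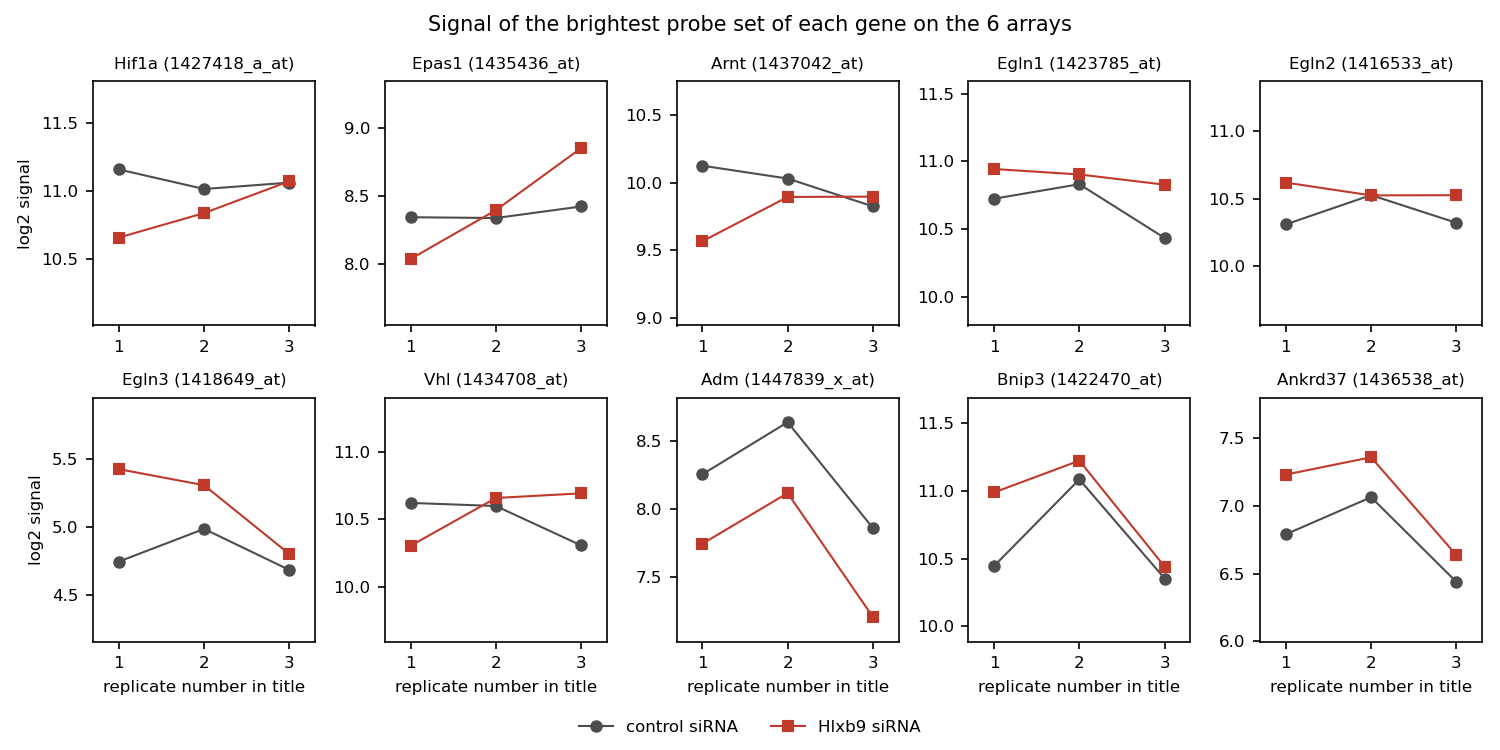
Log2 signal (y axis, the same span of 1.8 log2 in each panel) on the 6 arrays against the replicate number in the titles (x axis), for the brightest probe set of each gene. Circles are control siRNA and squares Hlxb9 siRNA, each point 1 array, and lines only join arrays of a group. Adm, Bnip3 and Ankrd37 have their highest value on replicate 2 and their lowest on replicate 3 in both groups.

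The responders also varied between arrays of different replicate number. In both groups Adm (1447839_x_at), Bnip3 and Ankrd37 were highest on replicate 2, intermediate on replicate 1 and lowest on replicate 3. This order in both groups was found for 3 of the 22 probe sets, beside 2.64% of all probe sets, and was picked out after the values were seen. Averaged over both groups, the Adm values of the 3 numbers spanned 0.85 log2, from 7.53 on replicate 3 to 8.38 on replicate 2. They spanned 0.76 for Bnip3 and 0.67 for Ankrd37. By the brightest probe set, the next widest spans among the genes described were 0.45 for Epas1 and 0.41 for Egln3. Such a span is a range of means, unlike a difference between the groups, so their sizes are not compared. By limma's moderated F test for the number, 3 of the 22 had an unadjusted p under 0.05, these same probe sets (0.0018, 0.0089 and 0.0064), beside 7.95% of all probe sets, and 0 passed after adjustment over all (limma adjusted p from 0.357 to 0.463), beside 0.00666%. That count of 3 was 5 without control replicate 1 (5.39% of all probe sets then), control replicate 3 (10.5%) or Hlxb9 siRNA replicate 1 (8.11%). It was 6 without Hlxb9 siRNA replicate 3, where 25.6% of all probe sets did so, and 1 without control replicate 2, beside 3.77%.

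On replicate 3 relative to the mean of replicates 1 and 2, Adm stood at -0.59 log2 in controls and -0.73 after Hlxb9 siRNA. Bnip3 stood at -0.41 and -0.66, and Ankrd37 at -0.49 and -0.66. Egln3 leaned the same way (-0.18 and -0.57). In both groups replicate 3 was the lower for 6 of the 22 probe sets, beside 24.6% of all probe sets. The Gapdh 3′ to 5′ difference was 2.13 on control replicate 3 and 0.70 on Hlxb9 siRNA replicate 3, and the part of RNA quality in these readings was not tested. The factor subunits did not share this pattern: Hif1a stood at -0.03 and 0.33, Epas1 at 0.08 and 0.64, and Arnt at -0.25 and 0.17. The plain Adm probe set, at -0.13 and 0.08, did not show it either (unadjusted p for the number 0.93). The labels do not state whether equal numbers mark a shared day or culture.

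**Figure D3:**
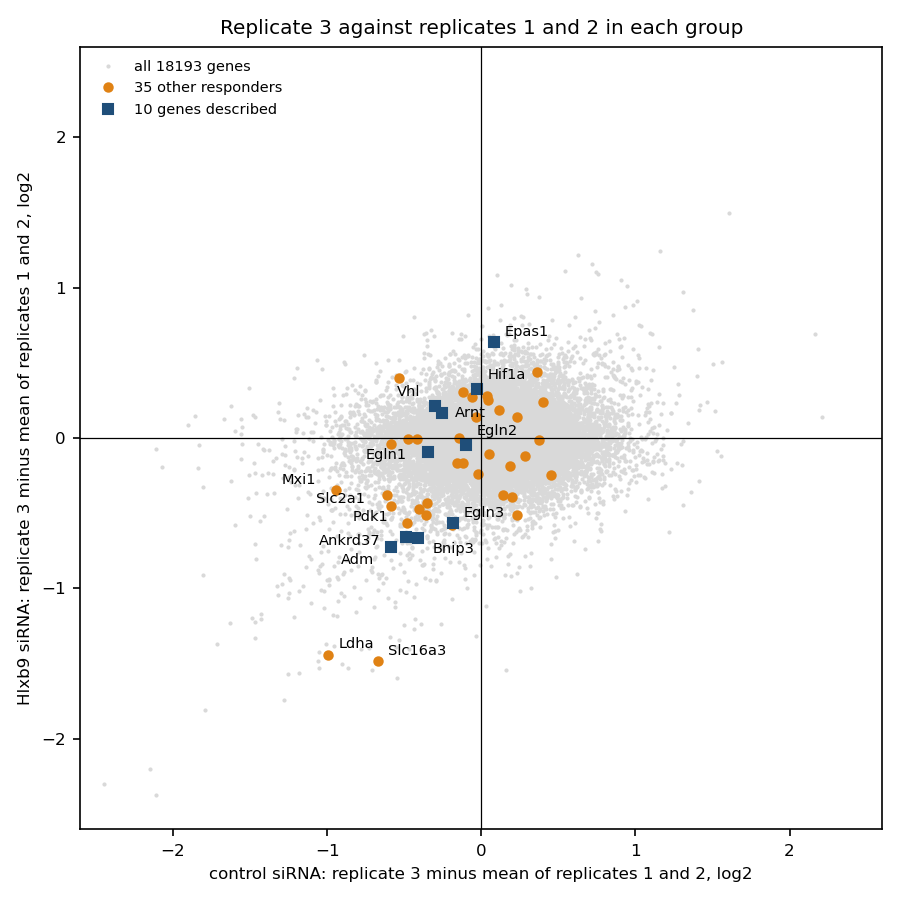
Replicate 3 minus the mean of replicates 1 and 2 in log2, in controls (x axis) and after Hlxb9 siRNA (y axis), each point 1 gene by its brightest probe set. Squares are the 10 genes, circles 35 other responders and grey points all 18193 genes. Adm, Bnip3, Ankrd37, Ldha and Slc16a3 lie at the lower left, with replicate 3 low in both groups.

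Of 40 other genes known to be raised by hypoxia inducible factors, 35 were measured. After Hlxb9 siRNA 23 of them read higher and 12 lower than in controls. The median difference was 0.07 log2, where that of all genes was 0.0023. The list leaned no way without control replicate 3, with 18 higher, 17 lower and a median of 0.02, and stood at 17 higher, 18 lower and -0.02 without Hlxb9 siRNA replicate 2. By limma 0 passed after adjustment, and 3 of the 35 had an unadjusted p under 0.05 (1 higher and 2 lower), beside 7.95% of all genes. With the replicate block 5 of the 35 did, Pdk1 and Cxcr4 being added, beside 9.31% of all probe sets. The glucose transporter gene Slc2a3 had the smallest p. It read 7.41, 7.37 and 6.97 in controls and 7.76, 7.78 and 7.76 after Hlxb9 siRNA, 0.51 ± 0.14 log2 (SE) higher on an _x_at probe set (limma adjusted p = 0.645, and 0.0431 with array weights, where 1132 probe sets of the array passed). No control reached the lowest of the Hlxb9 siRNA arrays. Angptl4, an inhibitor of lipoprotein lipase, was dim and differed by -0.51 ± 0.17 log2 (SE), with every Hlxb9 siRNA array below every control. The groups did not overlap for 2 of the 35, Slc2a3 and Angptl4, beside 3147 of all 18193 genes. Igfbp3, which binds insulin-like growth factors, read 5.54, 6.72 and 6.53 in controls and 4.27, 5.79 and 5.27 after Hlxb9 siRNA, so that the groups overlapped although each pair of equal number differed by -0.93 to -1.28. Its difference was -1.16 ± 0.43 log2 (SE), 2.23-fold lower (limma adjusted p = 0.645, and 0.478 with the replicate block), and -0.73 without Hlxb9 siRNA replicate 1. Zfp395 differed by 0.37 ± 0.17 (limma adjusted p = 0.666, and 0.0496 with array weights).

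The replicate number was tested in the same way for these responders. By limma's F test 11 of the 35 had an unadjusted p for the number under 0.05, 31.4%, beside 6.71% of all genes, and 0 passed after adjustment. Of the 11, 9 were lower on replicate 3 than on the mean of replicates 1 and 2 in both groups, and 2, Angptl4 and Igfbp3, were higher in both. Igfbp3, however, was lowest on replicate 1 and highest on replicate 2 in both groups. The following genes were named after their values were seen. Ldha, lactate dehydrogenase A, read 10.72, 11.28 and 10.01 in controls and 11.19, 11.48 and 9.90 after Hlxb9 siRNA. Slc16a3, the lactate exporter, read 6.38, 7.31 and 6.17 in controls and 6.92, 7.48 and 5.71 after Hlxb9 siRNA. Both had replicate 2 high and replicate 3 low in each group, as Bnip3 and Ankrd37 did. Pdk1, a kinase that restrains entry of pyruvate into mitochondria, stood at -0.48 and -0.57 on replicate 3 relative to the other numbers, in controls and after Hlxb9 siRNA. The glucose transporter gene Slc2a1 stood at -0.58 and -0.45 and Fam162a at -0.35 and -0.43. The order of replicate 2, then 1, then 3 in both groups was found for 7 of the 35 (Slc2a1, Pdk1, Pgk1, Ldha, P4ha2, Slc16a3 and Fam162a), beside 2.49% of all genes. Vegfa, another classical target, stood at 0.12 and 0.18 and did not follow it.

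Over the whole list, replicate 3 was lower than the other numbers in 60% of genes in controls and 68.6% after Hlxb9 siRNA, where 39.5% and 52.1% of all genes were. The count of 11 was 4 without control replicate 2, beside 3.12% of all genes then, and 5 without Hlxb9 siRNA replicate 2, beside 3.64%. Without control replicate 3 it was 14, beside 9.16% of all genes. Of these, 3 passed after adjustment, where 38 of all 45037 probe sets did. Without Hlxb9 siRNA replicate 3 the count was also 14, beside 24% of all genes. Of these, 4 passed, where 3459 of all 45037 probe sets did. In both fits number 3 rests on a single array. Without both arrays numbered 3 the count was 10, beside 6.51% of all genes, and 0 passed after adjustment. That fit compares only number 1 with number 2, so it does not show which arrays the count of 11 rested on. Islet transcripts were also read by number. On replicate 3 relative to the other numbers the hormone gene Sst differed by -0.32 among controls and -0.84 among Hlxb9 siRNA arrays. The hormone gene Ppy differed by -2.45 and -2.30, and Slc2a2, the beta cell glucose transporter gene, by 0.94 and 0.87. The other markers of these lists did not share one direction: Gcg stood at 0.23 and 0.08, Ins2 at 0.03 and 0.01 and Nkx6-1 at -0.06 and -0.04, and the median of the 6 beta cell markers was 0.08 and 0.0019. These markers were named after their values were seen. The part that islet cell composition has in the variation between numbers was not tested.

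**Figure D4:**
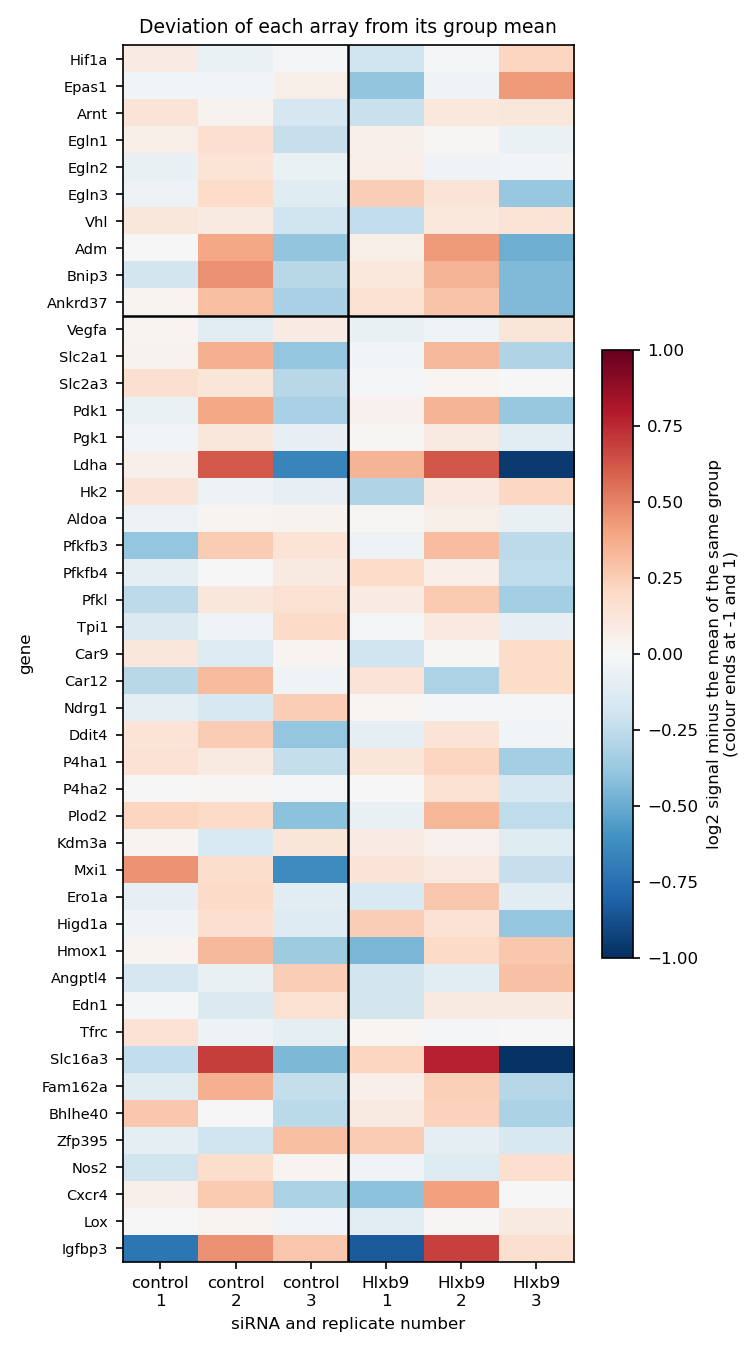
Log2 signal minus the mean of the same group for the 10 genes (above the line) and 35 other responders (below it), in rows, on the 6 arrays, in columns. Red is above and blue below the group mean. In both groups Ldha and Slc16a3 are red on replicate 2 and blue on replicate 3, together with Adm, Bnip3 and Ankrd37.

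Among 16 measured regulators and partners of the factors, 8 read higher and 8 lower after Hlxb9 siRNA (7 and 9 after each array was centred), the median being 0.01 log2, or -0.04 when centred, and 0 had an unadjusted p under 0.05 (limma), beside 7.95% of all genes. Siah1a, a ubiquitin ligase of the hydroxylases, differed by -0.31 ± 0.14 (SE) and its relative Siah2 by 0.22 ± 0.17. Rbx1, the RING subunit of the ligase that Vhl serves, was dim and differed by -0.22 ± 0.17, and Rwdd3, which enhances sumoylation of Hif1a, by 0.23 ± 0.18. For the number, 2 of the 16 had an unadjusted p under 0.05, 12.5%, beside 6.71% of all genes. These were Arnt2, a neural relative of Arnt, lower on replicate 3 (-0.42 in controls and -0.65 after Hlxb9 siRNA), and the dim Hif3a, higher there (0.76 and 0.55).

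The receptor genes for adrenomedullin were also measured. Ramp3, a receptor accessory protein, read 5.20, 5.28 and 5.37 in controls and 5.61, 5.69 and 5.55 after Hlxb9 siRNA, all above the controls, a difference of 0.33 ± 0.10 (SE, limma adjusted p = 0.645, and 0.044 with array weights). Calcrl, the receptor itself, was dim and differed by 0.10, the decoy receptor gene Ackr3 was likewise dim and differed by 0.08, and Ramp2 differed by -0.0073. Of 5 measured partners of Bnip3 in mitophagy, 4 were higher and 1 lower (3 and 2 after centring), and none had an unadjusted p under 0.05, though Gabarapl1 did with the replicate block (limma, 0.042). Gabarapl1, which binds Bnip3 family proteins on the autophagosome, read 11.41, 11.37 and 10.68 in controls and 11.68, 11.50 and 11.62 after Hlxb9 siRNA, all above the controls, a difference of 0.45 ± 0.20 (SE) that was 0.21 without control replicate 3. Map1lc3b differed by 0.08, Pink1 by 0.08 and Becn1 by -0.11. Groups without overlap were found for 1 of the 4 receptor genes and 2 of the 5 partners (Gabarapl1 and Map1lc3b), beside 3147 of all 18193 genes.

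Markers of cell types that a beta cell culture could hold were compared in the same way, and none passed. Of 4 leukocyte markers 3 were higher and 1 lower (median 0.12 log2). Cd68 differed by 0.54, with every Hlxb9 siRNA array above every control, and the defining Ptprc stayed between 2.79 and 3.33 on all arrays. Groups without overlap, as for Cd68, were found for 3147 of all 18193 genes. Of 4 fibroblast markers 1 was higher and 3 lower (median -0.20), of 4 endothelial ones 1 was higher and 3 lower (median -0.18), of 3 acinar and duct ones 2 were higher and 1 lower (median 0.08), and of 3 other islet hormones 1 was higher and 2 lower (median -0.03). The endothelial markers were each dim, below the median probe set on every array. Summed on the linear scale, they read 42.0 to 46.7 in controls and 35.2 to 46.6 after Hlxb9 siRNA. Their part in the Adm and Epas1 values was not tested. In bulk RNA, fewer cells of a type and less transcript per cell cannot be told apart.

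Across the 6 arrays the genes whose signals were most like that of Adm, the gene with the smallest p of the 10, were Lancl3, Setd7 and Lyve1 (Pearson r of 0.993, 0.978 and 0.972). They are the highest r of a search through all 18193 genes, and shared regulation was not tested. These values describe 6 arrays that share their groups and numbers.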

How the data were processed

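Total RNA of 6 MIN6 samples was measured on an Affymetrix mouse array. The authors deposited log2 values. Per the submitters' processing notes the tools were RMA (background correction, quantile normalization, probe set summaries) and Partek, without versions or settings. The 64 control probe sets were set aside, which left 45037. Names came from the platform annotation, and 34741 probe sets found their Entrez number in a table from RefSeq (GRCm38.p6). Of 95 entries in the gene lists 84 were measured. The brightest probe set by mean represented a gene.

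Groups were compared with limma 3.58.1 (R 4.3.3; lmFit, eBayes, two-sided, Benjamini-Hochberg adjustment over all probe sets, threshold 0.05), without covariate, after a check on simulated data. Variation between replicate numbers was tested with limma's moderated F test in a model with group and number. Array signal gives no read depth, and 3 arrays a group limit the precision. Where nothing says that arrays came from separate cultures beyond the statement of independent transfections, p-values measure the spread between these samples.

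Arrays of equal number deviated together from their group means (r of 0.155, 0.165 and 0.202 over all probe sets), so equal numbers may pair the arrays, as read from the values, not the labels. The main comparison does not use them. They enter the replicate block and the test of the number.

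The members and lists were chosen with earlier results of these data known. All members and, of each list other than the cell type markers, up to 4 genes with the smallest p were named; other genes are said to be named after their values were seen, and marker genes are named as definitions. Alternatives were centring, repeated quantile normalization, a linear offset of 32, leaving out dim probe sets, a variance trend with robust prior, array weights, the replicate block, leaving out each array, a threshold of 0.10, and other probe sets of a gene. The leave-out counts for the replicate number were added after seeing the data.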

Additional observations from a re-analysis of the deposited data

How the results depend on the processing

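With array weights, which rest mostly on both arrays numbered 2, limma called 1132 probe sets of the array. These held none of the 22, and from the lists Slc2a3, Zfp395 and Ramp3 (limma adjusted p = 0.0431, 0.0496 and 0.044). The other alternatives, a threshold of 0.10 included, called 0. The count of the 22 with an unadjusted p under 0.05, 0 in the main comparison, was 1 after centring (7.35% of all probe sets), 1 after repeated quantile normalization (7.25%), 5 with array weights (24.9%) and 3 with the replicate block (9.31%), and lay between 0 and 3 when single arrays were left out (3.9% to 10.2%). No adjusted call changed with the replicate block. Mnx1 lay between -0.38 and -0.22 without single arrays. For the replicate number, leaving out single arrays gave 0 to 1 of the 22 after adjustment, 1 to 6 of them at an unadjusted p under 0.05 (3.77% to 25.6% of all probe sets) and 4 to 14 of the 35 other responders (3.12% to 24% of all genes). The 1 call was Adm without Hlxb9 siRNA replicate 3 (limma adjusted p = 0.0427), a fit in which number 3 rests on control replicate 3 and which called 3459 probe sets.

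Signs changed only for differences that did not pass. With array weights Epas1 1449888_at read 0.0287, Arnt 1421721_a_at 0.0925, Arnt 1425064_at -0.0059 and Vhl 1421071_at 0.0113. Vhl 1434708_at read -0.0098 after centring, Epas1 -0.0106 as the mean of its probe sets and Hif1a 0.054 by its brightest plain probe set. Without single arrays the ranges were -0.41 to 0.0789 for Hif1a 1448183_a_at, -0.15 to 0.26 for Epas1 1435436_at, -0.19 to 0.0497 for Epas1 1449888_at, -0.25 to 0.11 for Arnt 1419996_s_at, -0.13 to 0.10 for Arnt 1421721_a_at, -0.30 to 0.17 for Arnt 1449696_at, -0.0604 to 0.0552 for Vhl 1421071_at, -0.0584 to 0.17 for Vhl 1434708_at, -0.0896 to 0.18 for Ackr3 and -0.16 to 0.22 for Ramp2. Adm 1447839_x_at, Egln3, Bnip3 and Ankrd37 kept their sign under each alternative run. So did Egln1, Egln2, Adm 1416077_at, Arnt 1437042_at, Hif1a 1416035_at and Hif1a 1431981_at. The causes were not tested. With 3 arrays a group, 95% intervals of the 22 differences include 0 and also sizes of up to 1.18 log2.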

Other observations

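Outside the hypoxia genes, 3 probe sets passed the test of the replicate number over the whole array (limma adjusted p = 0.0299 for each). None passed with the linear offset, without dim probe sets, without both arrays numbered 3, or without control replicate 1 or 2 or Hlxb9 siRNA replicate 1 or 2. They were named after their values were seen. Ppy, encoding pancreatic polypeptide, read 9.86, 9.68 and 7.32 log2 in controls and 10.95, 10.76 and 8.55 after Hlxb9 siRNA. Cdh13, a cadherin anchored by a lipid tail, read 7.36, 6.72 and 4.89 in controls and 7.45, 6.80 and 4.92 after Hlxb9 siRNA. Dlk1, a Notch-related membrane protein of fetal and endocrine cells, read 8.44, 7.20 and 5.71 in controls and 8.49, 7.04 and 5.39 after Hlxb9 siRNA. In all 3, both arrays numbered 3 were the lowest of their groups, as for Adm, Bnip3 and Ankrd37, while replicate 1 rather than replicate 2 was the highest.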
